A study of Mus musculus with 6 samples.

Results

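The expression of Asb2, of its cullin-5 partners Cul5, Rnf7, Elob and Eloc, and of the filamin gene Flna was examined in bone marrow-derived basophils (BMBAs) stimulated with IL-3 or PBS. These 6 genes were taken by symbol from a table of 37043 gene symbols, and all 6 were among the 16675 genes expressed highly enough to be tested. The set was chosen by the rise of Asb2 after IL-3 in these same libraries, so that rise is given as a description with no test. The other 5 genes were included for their known roles. BMBAs are basophils grown in culture from mouse bone marrow, here from wild-type C57BL/6J mice. Marrow cells spent 7 days in culture at 0.3 ng/mL of a cytokine, and CD49b beads then served to enrich the basophils. The methods of the study name that cytokine as IL-3, and whether any of it remained in the PBS medium is not given. The PBS group (3 cultures) and the IL-3 group (3 cultures, 10 ng/mL) were harvested after 6 h for sequencing of poly(A) RNA in bulk. The study used this comparison to ask how IL-3 might release pre-basophils from the bone marrow. Whether the 3 cultures of a group came from different mice is not given, so p-values measure the spread between cultures.

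ASB2 is a substrate receptor of a ubiquitin ligase. It holds its target through ankyrin repeats, and its SOCS box binds the adaptor pair elongin B and elongin C (Elob and Eloc) and the scaffold cullin-5 (Cul5), which carries the RING protein RNF7. The scaffold is switched on by attachment of the small protein NEDD8. The best known targets are filamins such as filamin A, long proteins that cross-link actin and bind integrin tails, and ASB2 marks them for degradation by the proteasome. Transcript levels do not show protein levels or ligase activity, neither of which was measured here.

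Asb2 (ENSMUSG00000021200.14, chromosome 12, 103321142 to 103356001, minus strand, GRCm38) has 2 start sites with a promoter window in RefSeq (GRCm38.p6), 17.611 kb apart. Each window covers 250 bases before and 50 bases after the start. Reads were counted per gene, so transcripts from either site cannot be told apart in these data. Both windows are shown because they are the sequences in front of the most strongly raised member. Capitals mark matches to any of 7 motifs searched on both strands. These were the STAT5 motif TTCNNNGAA, the STAT6 motif, which has 1 more base between the same arms, the GATA motifs TGATAA and AGATAA, the RUNX motif TGTGGT, the E-box CACGTG, and the CArG box.
Asb2 distal start, chr12:103355952-103356251, minus strand: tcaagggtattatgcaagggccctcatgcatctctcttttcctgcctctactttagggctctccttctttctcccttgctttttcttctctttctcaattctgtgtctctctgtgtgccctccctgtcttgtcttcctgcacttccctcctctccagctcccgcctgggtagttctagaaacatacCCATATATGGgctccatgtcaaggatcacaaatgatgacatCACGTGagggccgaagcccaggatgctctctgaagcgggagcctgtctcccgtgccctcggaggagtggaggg
Asb2 proximal start, chr12:103338341-103338640, minus strand: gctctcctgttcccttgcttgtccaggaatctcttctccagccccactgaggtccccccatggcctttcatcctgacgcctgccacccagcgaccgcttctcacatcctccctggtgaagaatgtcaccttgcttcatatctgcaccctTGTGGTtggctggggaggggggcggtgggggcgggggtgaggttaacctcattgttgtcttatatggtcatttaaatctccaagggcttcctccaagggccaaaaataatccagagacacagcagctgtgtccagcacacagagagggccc
The distal window held a CArG box, CCATATATGG, which 1.63% of the 32851 promoter windows of this length hold, and a CACGTG, which 7.15% hold. The proximal window held TGTGGT, which 16.8% hold. The STAT5, STAT6 and GATA motifs had no match in either window, and 8.30%, 6.95%, 9.05% and 11.2% of all windows hold them in the order given. The matches did not overlap each other.

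Library totals ranged from 10537540 to 13999287 counts. Levels are given in CPM, that is, counts scaled to a common library size with TMM factors (trimmed mean of M values). A gene was called where the quasi-likelihood test of edgeR gave it an adjusted p under 0.05. This held for 38.2% of all tested genes, 18.0% higher and 20.2% lower in IL-3. Basophil markers had a high sum in every library, with 8 of 8 tested (6 called higher, 1 lower). That sum was 10250 to 11444 CPM with PBS against 15297 to 15494 CPM with IL-3. Most of it was Prss34 and Mcpt8 (5615 and 3066 CPM in the PBS means), and Itga2 was lowest at 23.3 CPM. RNA of other cell types was present as well, and in each PBS library the sum of monocyte and macrophage markers lay above that of basophil markers. Megakaryocyte and platelet markers (6 of 6 tested, 3 called lower) summed to 1095 to 1777 CPM in PBS against 603 to 1137 CPM in IL-3, so their sums overlapped between the groups. Markers of monocytes and macrophages (8 of 8 tested, 6 called lower, 1 higher) summed to 11462 to 12374 and 5998 to 6616 CPM, most of it Lyz2 (10456 and 5348 CPM in the group means). Mast cell markers (5 of 7 tested, 3 called higher, with Mrgprb1 and Mrgprb2 below 1 CPM) summed to 331 to 370 and 668 to 759 CPM, and neutrophil markers (6 of 7 tested, 3 called higher, 1 lower) to 113 to 155 and 185 to 239 CPM. Their part in the results was not tested. In bulk RNA, fewer cells of a type and less RNA per cell cannot be told apart.

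Asb2 was detected in every PBS library and was far higher in every IL-3 library. Its level was 49.49, 55.41 and 51.44 CPM with PBS, and 918.56, 993.51 and 875.99 CPM with IL-3. The groups lay far apart, and each library stood close to its group mean. The means were 52.1 ± 3.02 and 929 ± 59.5 CPM (SD, n = 3 each), a ratio of 17.8 and a log2 fold change of 4.16 (SE 0.0664). By this measure Asb2 ranked 16 among the 16675 tested genes. The values rested on 584 to 632 reads per PBS library and 9304 to 11930 per IL-3 library, so counting error was small. No 50-mer of Asb2 occurred in transcripts of another gene. The antisense gene Gm15523 lies within Asb2 on the opposite strand, and it had 19 counts in all 6 libraries together against 34349 for Asb2.

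The partner genes of the ligase had far smaller differences than Asb2, which was chosen for its rise. A gene was called where the quasi-likelihood test of edgeR gave it an adjusted p under 0.05, which held for 38.2% of all tested genes, 18.0% higher and 20.2% lower in IL-3. Of the 4 partner genes, 2 were called, both higher. These genes lie on the minus strand, Elob at chromosome 17, 23824738 to 23829136, Eloc at chromosome 1, 16641725 to 16657042, Rnf7 at chromosome 9, 96470937 to 96478675, and Cul5 at chromosome 9, 53614582 to 53670014 (GRCm38). Elob, which encodes elongin B, had 88.84, 89.43 and 98.66 CPM in PBS and 110.08, 118.34 and 115.03 CPM in IL-3. The groups did not overlap, as held for 48.2% of all tested genes (23.8% higher and 24.4% lower). Its log2 fold change was 0.31 (SE 0.0626, edgeR adjusted p 0.000922). Eloc, which encodes elongin C, had 48.18, 48.31 and 50.65 CPM in PBS and 52.33, 58.63 and 59.96 CPM in IL-3, a log2 fold change of 0.22 (SE 0.0751, edgeR adjusted p 0.0311). The groups again did not overlap, but the first IL-3 library lay close to the highest PBS library. Both rises depended on the scaling, since with library totals alone all log2 fold changes moved by a median of -0.16 and neither Elob (0.15) nor Eloc (0.054) was called. Eloc was also not called when PBS replicate 1 (0.20), PBS replicate 2 (0.21), IL-3 replicate 2 (0.20) or IL-3 replicate 3 (0.18) was left out.

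Rnf7 and Cul5 were not called. Rnf7, the RING protein that recruits the ubiquitin-conjugating enzyme, had 46.79, 46.56 and 50.83 CPM in PBS and 50.15, 55.05 and 53.05 CPM in IL-3. The groups overlapped by 1 library on each side. Its log2 fold change was 0.14 (95% interval -0.023 to 0.29, edgeR adjusted p 0.172), and -0.028 with library totals alone. Cul5, the scaffold, had 59.80, 56.99 and 71.97 CPM in PBS and 60.22, 62.71 and 60.96 CPM in IL-3. The IL-3 libraries lay within the range of the PBS libraries. The log2 fold change of Cul5 was -0.037 (95% interval -0.21 to 0.14, edgeR adjusted p 0.772), and -0.20 with library totals alone (edgeR adjusted p 0.0842). The antisense gene Gm16124 overlaps Cul5 and was at 4.65 and 3.50 CPM in the means of PBS and IL-3, and use of strand in the counting is not given. Of the 50-mers of Rnf7, 27.4% occurred in other genes, chiefly Emb (24.3%), and of those of Elob 13.6% did, so the split of such reads between genes is uncertain. Emb itself was at 345 ± 8.87 and 333 ± 1.58 CPM (SD, n = 3 each).

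Levels of different genes were compared per length of exon. In PBS, Elob had the highest level at 66.0 ± 3.94 CPM per kb (SD, n = 3), followed by Rnf7 at 36.2 ± 1.81. Flna (16.4 ± 2.56), Eloc (16.2 ± 0.459) and Asb2 (14.7 ± 0.852) stood next in levels of CPM per kb, and Flna and Eloc did not differ beyond their spread. Cul5 was lowest, with 7.32, 6.98 and 8.81 CPM per kb in the PBS libraries. In IL-3, Asb2 was first at 262 ± 16.8 CPM per kb, above Elob at 81.9 ± 2.97. The level of Asb2 relative to Cul5 was 1.91, 2.24 and 1.65 in the PBS libraries and 35.16, 36.52 and 33.12 in the IL-3 libraries. Cul5 serves many receptors besides ASB2, so this ratio does not give the make-up of complexes.

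**Figure D1:**
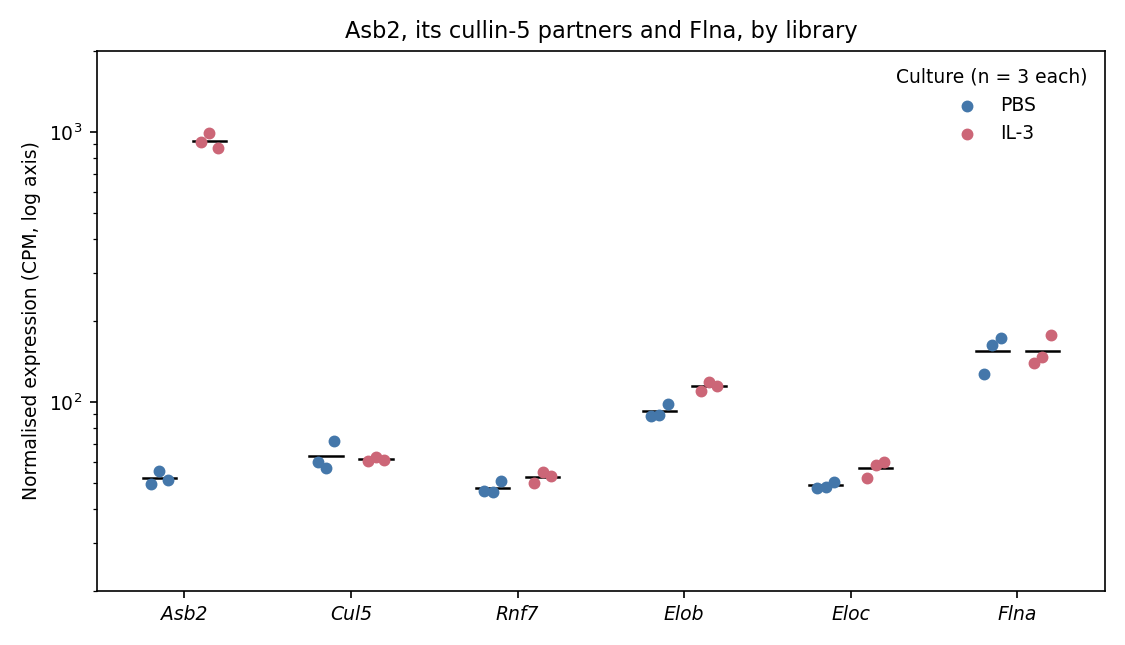
Normalised expression of Asb2, its cullin-5 partners and Flna in CPM on a log axis, with 1 point per library and a line at the mean of each group (n = 3). Asb2 stands far apart between PBS and IL-3, whereas Cul5, Rnf7 and Flna overlap.

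Flna, the gene of filamin A, was not called. Flna (chromosome X, 74223461 to 74249820, minus strand) had 127.29, 162.47 and 173.27 CPM in PBS and 139.90, 147.15 and 176.69 CPM in IL-3. The groups overlapped almost fully, with a log2 fold change of 0.0048 (SE 0.101, 95% interval -0.21 to 0.22, edgeR adjusted p 0.978). The sign of this difference was not stable, being -0.16 with library totals alone. Flna is abundant in platelets, and of the platelet markers given above 3 of 6 were called lower in IL-3. Over replicates 1, 2 and 3, their summed level was 1095, 1777 and 1167 CPM with PBS, and 603, 654 and 1137 CPM with IL-3. Both Flna and that sum were lowest in replicate 1 of each group and, in IL-3, highest in replicate 3. In PBS, Flna was highest in replicate 3 but the sum in replicate 2. The part of platelet RNA in the values of Flna was not tested. No 50-mer of Flna occurred in transcripts of another gene.

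Asb2, which was chosen for its rise, had the largest log2 fold change of the 9 tested genes of its family. The ASB family, receptors with ankyrin repeats and a SOCS box, had 8 tested genes besides Asb2, of which 2 were called, both higher. Of all tested genes, 18.0% were called higher. The median log2 fold change of these 8 was 0.18, against -0.0033 over all genes. Asb18 was at 5.90 ± 0.464 CPM with PBS against 11.2 ± 0.219 CPM with IL-3 (SD, n = 3 each), with a log2 fold change of 0.93 (edgeR adjusted p 0.00011). Asb1 was at 14.9 ± 1.08 CPM with PBS against 21.4 ± 2.54 CPM with IL-3, with a log2 fold change of 0.53 (edgeR adjusted p 0.00267). Both sets of libraries stood apart, but on the log2 scale the changes were small beside the value of 4.16 for Asb2. The other 6, Asb3, Asb6, Asb7, Asb8, Asb13 and Asb16, had log2 fold changes between -0.33 and 1.05 and were not called. The top of that range was Asb16, at 0.725 ± 0.409 and 1.52 ± 0.503 CPM, near the limit of detection. Of the other 9 ASB genes, 2 were not in the table and 7 had at most 29 counts in all. Asb2 made up 36.4% to 41.0% of ASB transcripts per length in PBS and 90.1% to 91.6% in IL-3.

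Among the other SOCS box receptors, which bind the same elongins, 7 of 16 tested genes were called higher and 4 lower. That was 68.8% called, against 38.2% of all tested genes. The median of these 16 was 0.20, well below the values of the leading genes. Socs1, an inhibitor of JAK kinases, had 44.99, 48.66 and 54.44 CPM in PBS and 832.77, 882.75 and 863.04 CPM in IL-3. Its log2 fold change of 4.12 and that of Cish, a STAT5-induced inhibitor of cytokine receptors, of 4.01 were close to the value of Asb2. Socs3 and Socs2, further feedback inhibitors of cytokine receptors, had log2 fold changes of 3.63 and 2.20. Of the 4 called lower, Wsb2 had the smallest adjusted p and fell by 0.68 on the log2 scale (edgeR adjusted p 2.62e-06). The largest fall among them was that of Spsb1, by 1.13 (edgeR adjusted p 0.00308). The summed level of ASB and other SOCS box receptors went from 181 ± 1.78 to 1029 ± 28.3 CPM per kb (SD, n = 3 each). Asb2 took 7.69%, 8.58% and 8.11% of it in the PBS libraries and 25.4%, 26.4% and 24.5% in the IL-3 libraries. In IL-3, Socs1 was ahead of Asb2 at 28.7 ± 0.685% and Cish behind it at 19.8 ± 0.358%. That order rests on the division by exon length. In CPM, the IL-3 means were 1311 for Cish, 929 for Asb2 and 860 for Socs1.

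**Figure D2:**
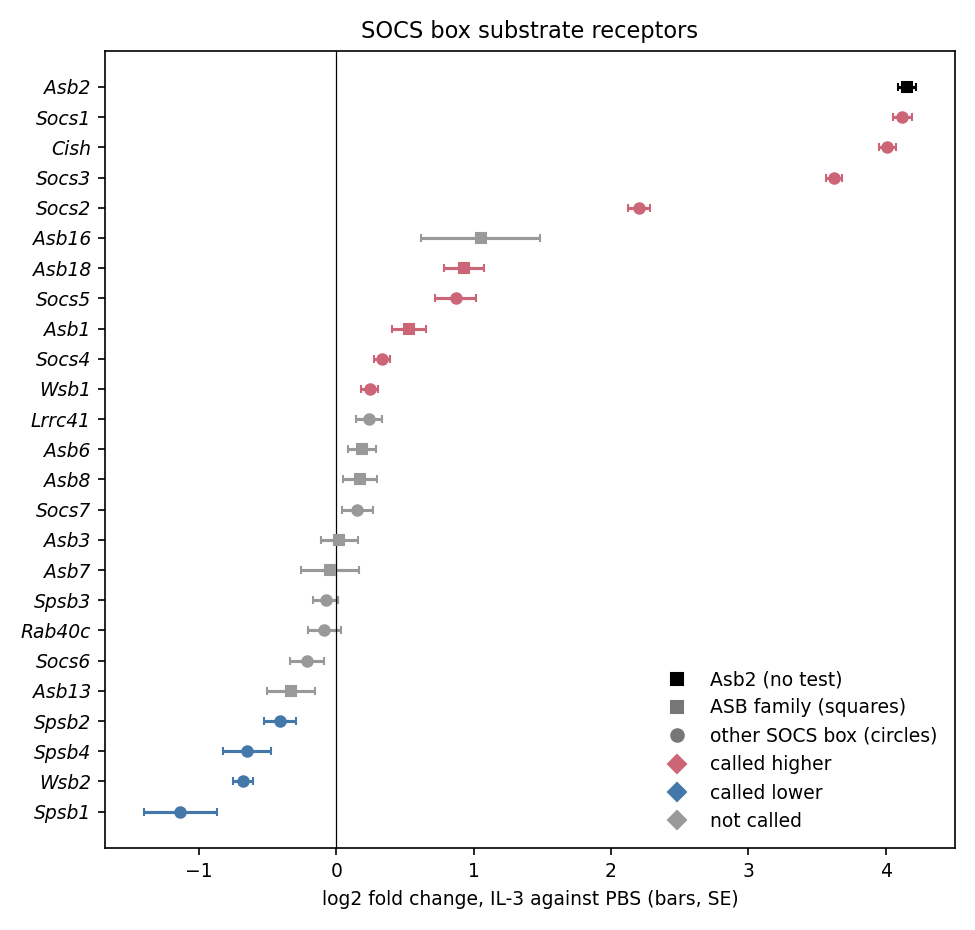
Log2 fold change of IL-3 against PBS with its SE for the tested ASB genes (squares) and other SOCS box receptors (circles), coloured by whether edgeR called them higher, lower or neither, except Asb2, which is drawn in black with no test. Asb2, Socs1, Cish and Socs3 lie between 3.63 and 4.16, and the other 8 ASB genes between -0.33 and 1.05.

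**Figure D3:**
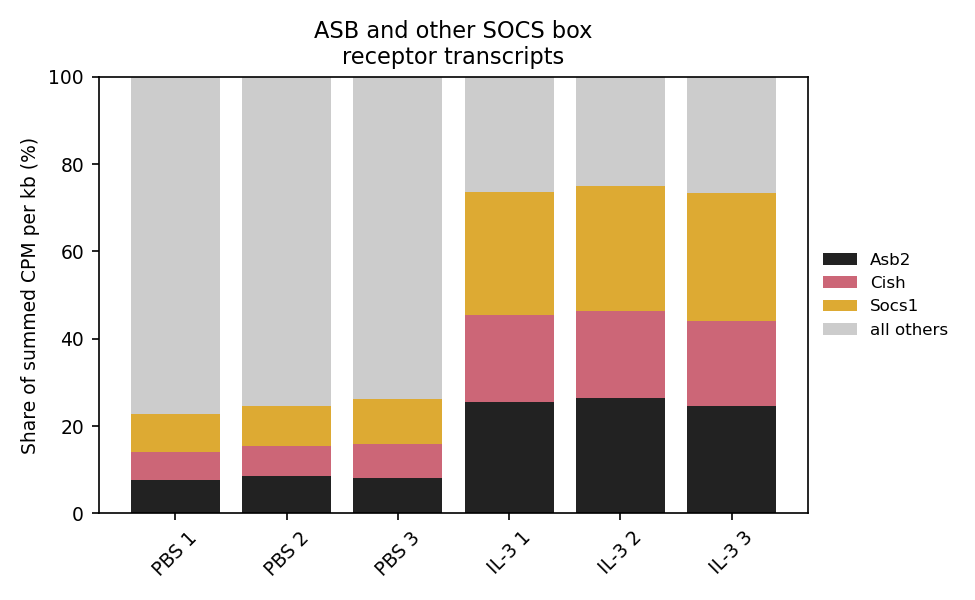
The share of Asb2, Cish, Socs1 and all other ASB and SOCS box receptor genes in their summed CPM per kb, in percent, for each library. Asb2 takes 7.69% to 8.58% of the receptor transcripts in PBS and 24.5% to 26.4% in IL-3.

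Among the other cullins and the genes that control them, Cul7 had the largest difference, and the log2 fold changes of the rest lay between -0.64 and 0.46. Of 7 other cullins and Rbx1, the RING partner of most of them, 3 were called higher and 1 lower. Cul1 had a log2 fold change of 0.33 (edgeR adjusted p 0.000818), Cul3 of 0.23 (0.0398) and Rbx1 of 0.22 (0.0133), none of which was called with library totals alone. Cul3 was called in the fit of all libraries but only in 1 of the 6 fits with a library left out, that without PBS replicate 1, and not by the DESeq2 Wald test. Rbx1 was not called without IL-3 replicate 3 (0.15). Cul7, a cullin of atypical complexes, fell from 7.20 ± 0.364 to 3.20 ± 0.411 CPM (SD, n = 3 each), by 1.16 on the log2 scale (edgeR adjusted p 0.000144). Of the 30 genes of neddylation and cullin control, 11 were called higher and 19 were not called, or 3 higher and 1 lower with library totals alone. With TMM that was 36.7% called, where 38.2% of all tested genes were called, 18.0% of them higher in IL-3. The median log2 fold change of these 30 genes was 0.18. Ube2f, which encodes the enzyme that passes NEDD8 to Cul5 together with Rnf7, had a log2 fold change of 0.39 (edgeR adjusted p 0.000317) and was called under each alternative run. The ubiquitin-conjugating enzymes Ube2d3, Ube2d2a and Ube2l3 had log2 fold changes of 0.40, 0.27 and 0.25, though Ube2d2a (0.11) and Ube2l3 (0.089) were not called with library totals alone. Gps1, a subunit of the COP9 signalosome that removes NEDD8, had a log2 fold change of 0.42. It shared 40.3% of its 50-mers with a single other gene, Gm9816.

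Proteins other than filamins have been described as ASB2 targets. Jak2, the kinase bound to the IL-3 receptor, had 76.74, 76.72 and 78.22 CPM in PBS and 161.81, 153.65 and 172.19 CPM in IL-3. The groups stood clearly apart, with a log2 fold change of 1.07 (SE 0.0609, edgeR adjusted p 8.59e-10). Kmt2a, a histone methyltransferase, was at 113 ± 4.11 CPM with PBS against 113 ± 9.41 CPM with IL-3 (SD, n = 3 each), with a log2 fold change of 0.0054 (edgeR adjusted p 0.960), or -0.16 with library totals alone. Tcf3, which encodes the transcription factor E2A, was at -0.050 and Jak3, the kinase of the common gamma chain, at -0.30, and neither was called. Des had no count and Smad9 had 49 counts in all libraries.

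Filamin-binding partners moved both ways. Of 14 tested genes, 6 were called higher and 4 lower, and their median log2 fold change was -0.051. That was 71.4% called, against 38.2% of all tested genes. Itgb1, the integrin beta 1 chain, had 167.54, 188.24 and 171.24 CPM in PBS and 251.76, 270.40 and 291.94 CPM in IL-3, a log2 fold change of 0.63 (edgeR adjusted p 1.24e-06). Itgb2, the beta 2 chain of leukocytes, was at -0.11 and was not called. Itgb3, also a platelet gene, had a log2 fold change of 0.39 (edgeR adjusted p 0.0106), but its groups overlapped and it was not called without PBS replicate 1 (0.28), PBS replicate 3 (0.32) or IL-3 replicate 3 (0.30), with library totals alone (0.22) or by the DESeq2 Wald test (0.39). Fblim1, whose product migfilin links filamin to adhesions, fell from 38.9 ± 0.968 to 11.8 ± 0.542 CPM (SD, n = 3 each), by 1.72 on the log2 scale (edgeR adjusted p 9.78e-10). Arhgap24, a filamin-bound regulator of Rac, fell by 1.04. Trio and Vim, which encode a guanine nucleotide exchange factor and vimentin, had log2 fold changes of 0.73 and 0.37.

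Other actin crosslinkers and integrin linkers gave a mixed picture as well. Of 18 tested genes, 4 were called higher and 4 lower, with a median of -0.098. That was 44.4% called, against 38.2% of all tested genes. Lcp1, the actin-bundling protein of leukocytes, had 801.47, 770.77 and 832.00 CPM in PBS and 1624.76, 1676.97 and 1568.47 CPM in IL-3, a log2 fold change of 1.02 (edgeR adjusted p 5.45e-11). Tagln2 and Tln1, which encode transgelin-2 and talin-1, had log2 fold changes of 0.57 and 0.49. Actn1 and Vcl, the genes of alpha-actinin-1 and vinculin, fell by 0.61 and 0.68 on the log2 scale. Vcl is also a platelet gene, and its libraries ranged from 85.65 to 121.61 CPM in PBS and from 52.05 to 75.08 CPM in IL-3.

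**Figure D4:**
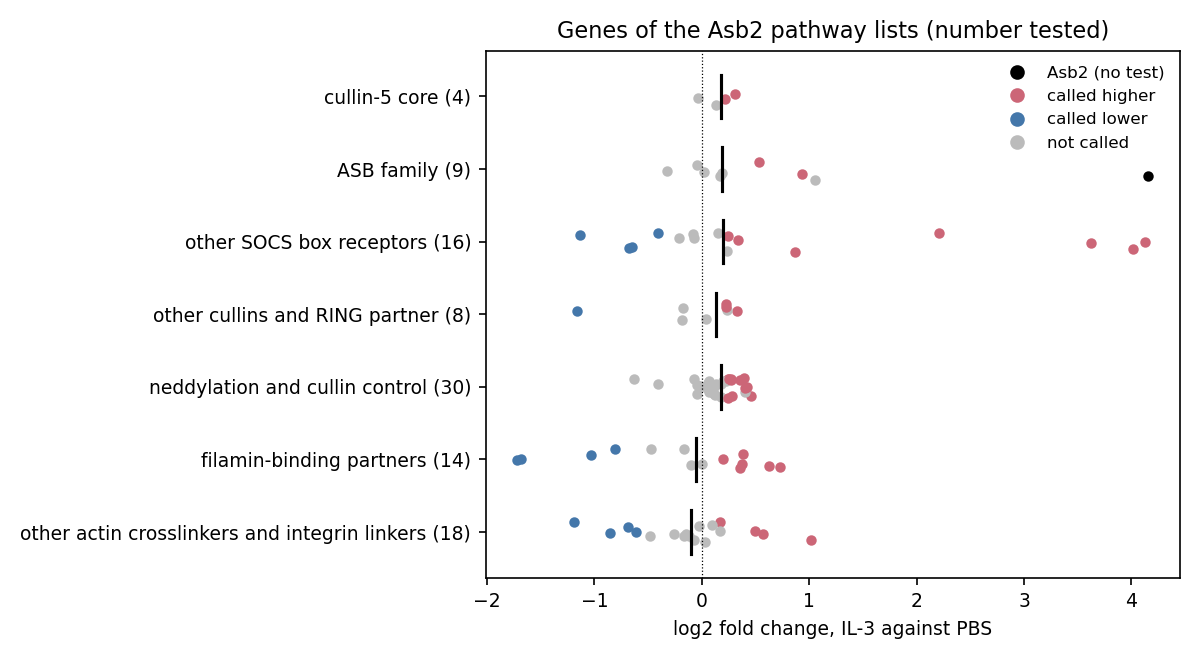
Log2 fold change of IL-3 against PBS for each tested gene of 7 lists, with 1 point per gene, Asb2 in black with no test, a bar at the list median and a dotted line at the median of all genes. The cullin-5 core and neddylation genes stay between -0.64 and 0.46, whereas ASB and other SOCS box receptors reach from -1.13 to 4.16.

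The genes around Asb2 had smaller log2 fold changes than Asb2, which was chosen for its rise. Of the 10 tested genes that flank it, 5 on each side and up to 563 kb away, 3 were called higher and 1 lower. Of all tested genes, 38.2% were called. Gaps were measured between RefSeq gene models (GRCm38.p6), which differ from those of GENCODE for some genes. The nearest, Otub2, lies 20.9 kb away by these models and encodes a deubiquitinase, and its GENCODE model starts at position 103388682, farther from Asb2. It had 8.18, 6.05 and 8.99 CPM in PBS and 17.97, 19.40 and 17.37 CPM in IL-3, a log2 fold change of 1.24 (SE 0.149, edgeR adjusted p 6.75e-06). Ddx24, an RNA helicase gene at 52.0 kb, had a log2 fold change of 0.34, Btbd7 at 443 kb of 0.27, and Ifi27, an interferon-induced gene at 78.2 kb, fell by 0.42. With library totals alone Ddx24 (0.17) and Btbd7 (0.11) were not called. The other 6 were Gon7, Ubr7, Gm7143, Unc79, Ifi27l2a and Serpina10, with log2 fold changes from -0.12 to 0.20.

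**Figure D5:**
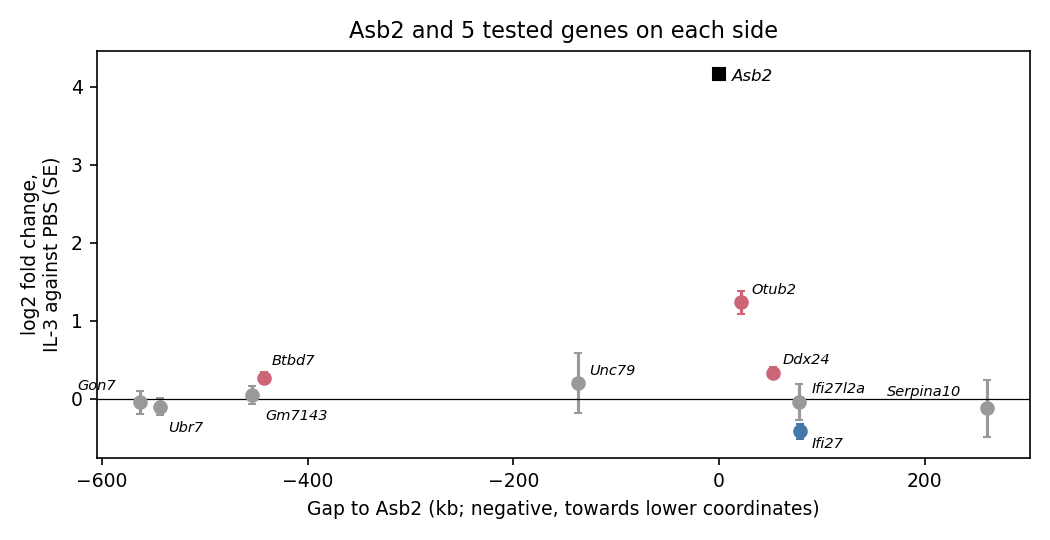
Log2 fold change of IL-3 against PBS with its SE for Asb2 and 5 tested genes on each side, against the gap to Asb2 in kb between RefSeq gene models. Asb2 lies at 4.16, Otub2 at 1.24, and the other 9 genes between -0.42 and 0.34.

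The genes whose pattern over the 6 libraries was most like that of Asb2 were Socs1, Cish, AC142112.1, Serpina3g and Il6. Likeness was measured as the Euclidean distance between log2 CPM values after each gene was centred on its mean, and these distances were 0.23, 0.26, 0.37, 0.39 and 0.43. Their log2 fold changes lay between 3.95 and 4.39, so the likeness rests on the same contrast that selected Asb2. Il6 reached 1346 ± 124 CPM and Serpina3g 361 ± 19.3 CPM in IL-3 (SD, n = 3 each). AC142112.1 is a clone name without an entry in the annotation used.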

How the data were processed

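Raw read counts per gene symbol of 6 libraries were used as the authors deposited them. According to the study's methods and processing notes, the authors trimmed reads with cutadapt 3.4, mapped them to reference RNA with Bowtie2 and counted reads per gene. The cDNA was amplified before sequencing. The labels name a column kit for the RNA and the methods direct lysis. The methods name the build GRCm38 and the processing notes GRCm39. Molecular identifiers and use of strand are not given in the sources used here, so intervals cover counting error without PCR duplicates. A count of 0 allows up to 3 counts, or 0.233 to 0.296 CPM.

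Genes were filtered with filterByExpr, scaled by TMM and compared by the quasi-likelihood F test of edgeR 4.0.16 in R 4.3.3, two-sided, with Benjamini-Hochberg adjustment over 16675 genes, called at an adjusted p below 0.05. The SE was derived from the F value. The study used TCC, which builds on edgeR. On simulated counts for this comparison, 77.1% of 192 genes changed 2-fold among 16447 were called, with 0.0677% of unchanged genes. Gene models, exon lengths (all exons of a gene merged) and transcripts for the 50-mer comparison came from GENCODE M21 (GRCm38), in which 96.12% of symbols were found. Promoters and the order and gaps of neighbouring genes came from RefSeq (GRCm38.p6). Promoter windows were held for Asb2, Cul5, Rnf7, Elob and Flna.

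The genes of the set, the lists and the tests were chosen with earlier results of these data known. Named genes are the 6 of the set, every tested gene of the lists of cullin-5 core, filamins, ASB family, other cullins and reported ASB2 targets, the 5 called genes with the smallest adjusted p and the 3 most abundant of each other list, 5 tested neighbours on each side, and the 5 genes most like Asb2. One gene that this rule takes in is not reported here. Gm15523, Gm16124, Emb and Gm9816 were added as overlapping genes or genes of shared sequence. Spsb1 was added as the receptor with the largest fall, and Des and Smad9 are named as not tested. Marker lists of muscle were also measured: 2 of 8 genes were tested, the sum was 55.1 to 63.7 CPM with PBS against 98.4 to 103.8 CPM with IL-3, nearly all of it Acta1, and Myh1, Myh7, Tnnt3 and Ttn were below 1 CPM.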

Additional observations from a re-analysis of the deposited data

How the results depend on the processing

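With library totals in place of TMM, which shifted the median over all genes by -0.16 on the log2 scale, the log2 fold change was 3.995 for Asb2, 0.15 for Elob and 0.054 for Eloc (neither called), -0.20 for Cul5 (-0.037 with TMM, not called in either), -0.028 for Rnf7, -0.16 for Flna, -0.14 for Asb3, -0.13 for Cul4a, -0.16 for Kmt2a and -0.11 for Gm7143. All genes then gave 1698 higher calls (3003 with TMM) against 5030 lower calls (3372), and the pathway lists together, Asb2 included, 21 higher (38) and 23 lower (13). The actin crosslinkers and integrin linkers had 8 lower calls (4 with TMM), or 2 with the DESeq2 Wald test, and the other cullins 2 (1). Asb13 (-0.49), Cul4b (-0.35), Jak3 (-0.46) and Itgb2 (-0.27) were then called lower. The genes of neddylation and cullin control had 3 higher calls (11), and 1 lower call appeared among them there, without the low-count filter, at the 1 CPM minimum, and without PBS replicate 2 or IL-3 replicate 1. Under DESeq2 1.42.0 size factors or its Wald test, without the low-count filter, with a minimum of 1 CPM in 3 libraries instead, or with the replicate block, Elob, Eloc, Rnf7, Cul5 and Flna kept their direction and their side of the threshold. Asb2, which chose the set, is left out of that statement.

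With 1 library left out, Asb2 ranged from 4.10 to 4.20, Elob from 0.28 to 0.36, Rnf7 from 0.10 to 0.18, Eloc from 0.18 to 0.27, Cul5 from -0.10 to 0.069 and Flna from -0.12 to 0.095. The sign also changed for Asb3 (-0.032 to 0.10), Asb7 (-0.26 to 0.14), Cul4a (-0.083 to 0.11), Kmt2a (-0.053 to 0.061), Tcf3 (-0.12 to 0.018), Gm7143 (-0.0086 to 0.098), Gon7 (-0.17 to 0.064), Ifi27l2a (-0.17 to 0.19), Serpina10 (-0.30 to 0.093) and Unc79 (-0.021 to 0.52), none of them called. Asb8 was called without PBS replicate 1 (0.33) and Asb16 without PBS replicate 3 (1.54). The other cullins had 1 higher call without IL-3 replicate 3 (3 with all libraries). The cause of these changes was not tested.

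Across genes, libraries of equal number deviated from the group mean with correlations of -0.0087, -0.016 and -0.022, so the numbers did not pair them. With the replicate block, 2842 genes were higher and 3247 lower, and among named genes Cul3 (0.23) alone lost its call.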
